A study of Homo sapiens with 4 samples.

Results

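The collagen, laminin and integrin genes build the matrix around a cell and the receptors that hold the cell to it. Their transcript levels were described in LV-M100 cells with and without depletion of SNRNP40, a spliceosome component that belongs to the U5 particle. A gene was a member if its symbol was that of a collagen, laminin or integrin chain by its first letters, or was FN1, SPARC, THBS1, TNC, FBN1, NID1 or CD44, and members with a mean level of at least 1 FPKM over both conditions were described. The symbols alone gave 91 genes with 198 listed transcripts, of which 40 reached that level, among 12339 of 23217 gene symbols in all. FPKM counts sequenced fragments scaled to transcript length and to library depth, and the level of a gene is here the sum of the FPKM of its listed transcripts.

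LV-M100 is a single clone of MDA-MB-231, an established human breast cancer cell line, and belongs to the lowly variable subpopulations of the study. Both conditions shared the clone and the transfection of a short RNA, with RNA taken 48 h later. In the siSNRNP40 condition one culture received siSNRNP40 #1 and another siSNRNP40 #2, and in the siControl condition one received NC1 and another BLOCK-iT, both control oligonucleotides. The sequences of the depleting siRNAs, as the sample labels give them, define the treatment and are shown for that reason.

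siSNRNP40 #1: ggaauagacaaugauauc
siSNRNP40 #2: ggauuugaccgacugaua

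The 4 libraries, 2 in each condition, were deposited as 1 pooled value per condition. No spread between libraries could therefore be computed, no difference below has a test, and a difference made by 1 siRNA or 1 control oligonucleotide alone cannot be told apart from one shared by both. SNRNP40 itself was at 40.4 FPKM in siControl and 6.12 in siSNRNP40. The cells carried the markers of a mesenchymal-like breast cancer line in both conditions: all 5 such markers were above 100 FPKM, with VIM at 750 and 733 FPKM in siControl and siSNRNP40. The luminal markers CDH1, ESR1 and PGR were below 0.1 FPKM in both, although KRT19, an epithelial keratin, was at 196 and 173 FPKM and EPCAM, an epithelial adhesion protein, at 10.6 and 10.0 FPKM. ERBB2 and GATA3, which also stood among the luminal and epithelial markers, were at 6.56 and 7.42 FPKM and at 1.32 and 1.18 FPKM. Of the markers of other cell types, PTPRC, CDH5, VWF and DCN were listed at 0 in both conditions, and PDGFRB was the highest at 2.28 and 1.81 FPKM. In bulk RNA, fewer cells of a kind and less RNA per cell cannot be told apart.

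Collagens are trimers of alpha chains that form fibrils, networks or filaments, and several types need chains from more than one gene. Laminins are trimers of one alpha, one beta and one gamma chain and form the scaffold of basement membranes. Integrins are pairs of one alpha and one beta subunit that bind these proteins outside the cell and link them to the actin cytoskeleton inside it. In breast carcinoma cells these genes are known for their part in adhesion, migration and invasion.

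The LV-M100 cells expressed a set weighted towards receptors and basement membrane chains. ITGB1, the beta 1 subunit shared by most matrix-binding integrins, was the highest member at 794 FPKM in siControl and 619 in siSNRNP40. ITGA3, a laminin-binding alpha subunit, followed at 224 and 177 FPKM, and ITGA6, another laminin-binding subunit, at 195 and 170 FPKM. THBS1, the matricellular glycoprotein thrombospondin 1, was at 150 FPKM in both conditions, and CD44, the hyaluronan receptor, was at 116 and 141 FPKM. The next in order were LAMB3 at 73.9 and 81.0 FPKM, LAMC1 at 60.2 and 71.8 FPKM, ITGB3BP at 54.3 and 58.4 FPKM, ITGB5 at 57.7 and 44.6 FPKM and COL13A1 at 36.2 and 33.7 FPKM. All of these 10 kept within 0.5 of 0 on the log2 scale of the difference.

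**Figure D1:**
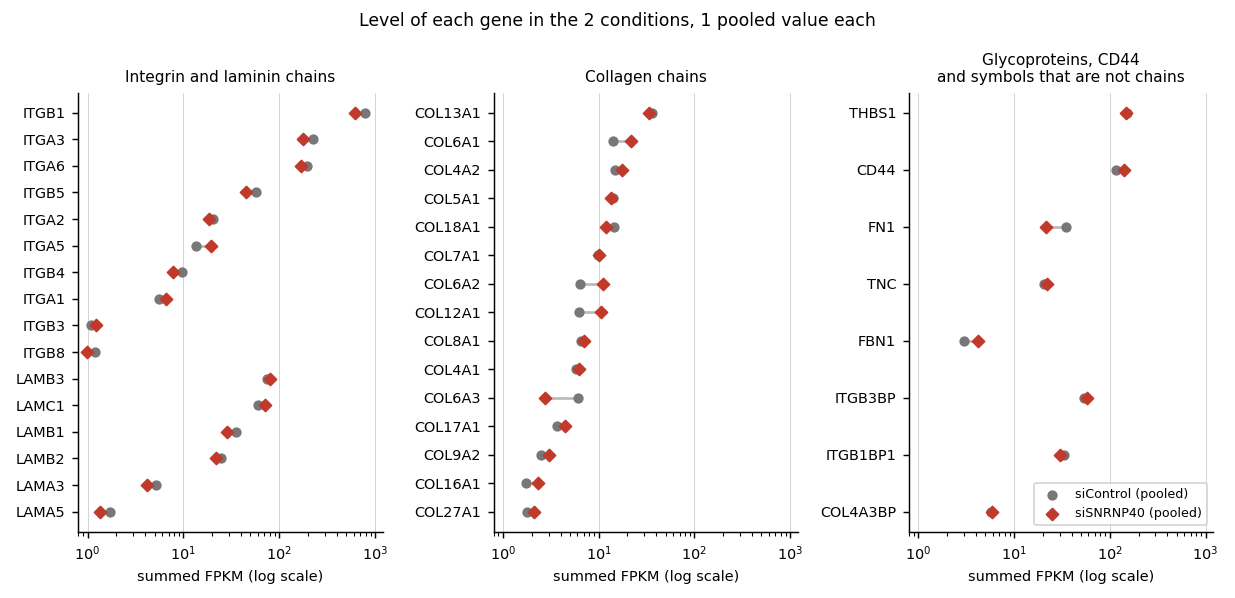
FPKM summed per gene (log axis) of 39 of the 40 members in siControl (grey circles) and siSNRNP40 (red diamonds), 1 pooled value per condition and so without error bars. Most pairs of points nearly coincide, and the widest gap is that of COL6A3, at 6.02 and 2.74 FPKM.

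Not every matched symbol was a matrix or receptor chain. COL4A3BP, a ceramide transfer protein, ITGB1BP1, a protein that binds the beta 1 tail, and ITGB3BP, a centromere protein, were matched by their letters and were above the minimum, which left 37 chains, glycoproteins and CD44. These were 15 of 43 collagen chains, 7 of 12 laminin chains, 10 of 20 integrin subunits and 5 of the 7 named glycoproteins and receptors. The minimum fell between ITGB8 and ITGA10, which were close in mean level. ITGB8, ITGB3 and LAMA5 lay just above it with mean levels of 1.09, 1.16 and 1.54 FPKM, and ITGA10, ITGB2 and COL4A5 lay just below it with 0.877, 0.608 and 0.430 FPKM.

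The 51 members below the minimum included the chains of the main interstitial collagens. COL1A1 and COL1A2, which form collagen I, had mean levels of 0.138 and 0.274 FPKM, and COL3A1 had 0.0065 FPKM. SPARC, a collagen-binding glycoprotein, had 0.229 FPKM, and NID1, which bridges laminin and collagen IV, had 0.0057 FPKM. Of the 51, 8 were listed at 0 in both conditions, and 9, COL3A1 and NID1 among them, at 0 in 1 condition.

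The difference between conditions was taken as the log2 of the siSNRNP40 value over the siControl value. The study set a threshold of 1 on the absolute value for transcripts, and here it was set on gene sums. Past it lay 1 of the 40 members, COL6A3, against 1.47% of 12334 genes. These were the genes with a mean of at least 1 FPKM and a value above 0 in both conditions. Past an absolute value of 0.5 lay 7 of the 40, or 17.5%, against 10.3% of all genes. Among these 7, 5 were higher with siSNRNP40, where 5.24% of all genes were, and 2 were lower, where 5.06% were. In both directions together 22 members were higher and 18 lower, and the median log2 difference of the members was 0.060 against 0.0034 for all genes. The median size of the difference, regardless of sign, was 0.287 for members and 0.170 for all genes. With no spread between libraries, these shares are descriptions.

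Low genes differed more between the conditions than high genes, so the members were also read against genes of like level. Between 5 and 20 FPKM, 4 of 14 members lay past 0.5, against 7.23% of 4507 genes. At 20 FPKM or more, 2 of 16 members did, against 4.32% of 4052 genes. Between 1 and 5 FPKM, 1 of 10 members did, against 20.4% of 3775 genes.

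**Figure D2:**
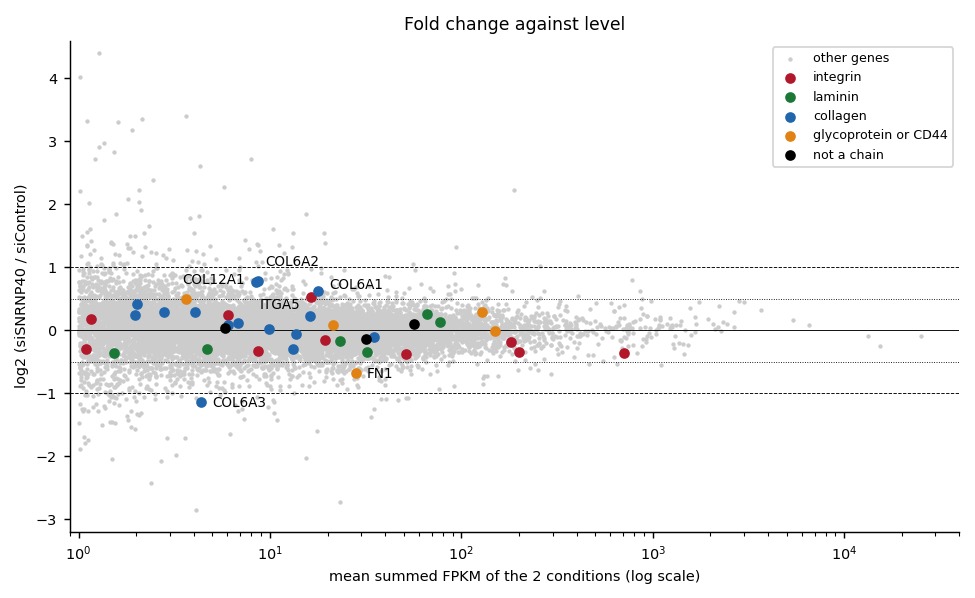
Log2 of siSNRNP40 over siControl against the mean summed FPKM of the 2 conditions (log axis) for all genes in grey and 39 of the members in colour by family, with dotted lines at 0.5 and dashed lines at 1 on either side of 0. The 6 labelled members lie past 0.5, and COL6A3 alone lies past 1.

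Of the collagens, 11 of the 15 chains above the minimum were higher with siSNRNP40 and 4 were lower, with a median log2 difference of 0.23. Among all genes, 50.5% were higher. Their summed level was 144 FPKM in siControl and 158 in siSNRNP40. All chains of collagen VI above the minimum lay past 0.5. Collagen VI is a beaded-filament collagen whose common form takes a chain from each of COL6A1, COL6A2 and COL6A3. COL6A1 was at 14.0 FPKM in siControl and 21.6 in siSNRNP40, a log2 difference of 0.62. COL6A2 was at 6.37 and 11.0 FPKM, a log2 difference of 0.79. COL6A3, which codes for the longest of these chains, went the other way, at 6.02 and 2.74 FPKM, a log2 difference of -1.14. The ratio of COL6A1 to COL6A3 was thus 2.33 in siControl and 7.91 in siSNRNP40, and that of COL6A2 to COL6A3 was 1.06 and 4.03. COL6A1 to COL6A2 differed little, at 2.20 and 1.96.

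COL6A1 and COL6A2 lie in a row on the plus strand of chromosome 21, at 47401684 to 47424964 and 47518026 to 47552762 (GRCh37), with 93061 bases between them. COL6A3 lies on the minus strand of chromosome 2, at 238232646 to 238322971. COL18A1, which codes for a basement membrane collagen that yields endostatin, lies on the same strand of chromosome 21 at 468049 bases from COL6A1, and was at 14.6 FPKM in siControl and 11.9 in siSNRNP40, a log2 difference of -0.30. The bases before the annotated starts of COL6A2 and COL6A3 are given as RefSeq lists them (GRCh38.p14), since these partner chains differed in opposite directions. No such sequence was matched for COL6A1. Capitals mark matches, on either strand, to 4 motifs. The AP-1 site was searched as TGACTCA. The cyclic AMP response element, or CRE, was searched as TGACGTCA. The GC box bound by Sp proteins was searched as GGGCGG, and the promoter element known as the TATA box as TATAAA.

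COL6A2, chr21:46097862-46098111, plus strand: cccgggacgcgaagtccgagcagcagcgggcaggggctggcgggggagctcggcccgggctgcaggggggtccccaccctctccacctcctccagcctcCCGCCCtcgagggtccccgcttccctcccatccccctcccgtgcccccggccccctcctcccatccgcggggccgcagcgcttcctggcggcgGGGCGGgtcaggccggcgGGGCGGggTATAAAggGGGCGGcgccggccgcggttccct
COL6A3, chr2:237414165-237414414, minus strand: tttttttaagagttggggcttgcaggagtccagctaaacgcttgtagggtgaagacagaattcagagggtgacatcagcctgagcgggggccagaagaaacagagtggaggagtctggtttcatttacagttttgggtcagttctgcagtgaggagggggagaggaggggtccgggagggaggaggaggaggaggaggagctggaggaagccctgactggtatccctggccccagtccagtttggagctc

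The COL6A2 stretch held 4 GC boxes, 1 TATA box and 28 CpG dinucleotides, at 79.6% G and C. The COL6A3 stretch held no match to the 4 motifs and 3 CpG dinucleotides, at 56.0% G and C. Over all 35116 promoters of the RefSeq table, cut to the same 250 bases, 42.6% held a GC box, 10.7% a TATA box, 4.2% AP-1 and 1.65% CRE, with a median of 11 CpG and 58% G and C. A match is a run of letters and says nothing of binding. Whether promoter sequence bears on any difference between the conditions was not tested.

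COL12A1, which codes for a fibril-associated collagen, was the only other collagen above the minimum that lay past 0.5. It was at 6.28 FPKM in siControl and 10.7 in siSNRNP40, a log2 difference of 0.77. The 250 bases before its RefSeq start (GRCh38.p14) held 1 GC box and 21 CpG dinucleotides, at 61.2% G and C. COL12A1 lies on the minus strand of chromosome 6 at 75794042 to 75915983 (GRCh37). Its fibril-associated relatives COL9A2 and COL16A1 were at 2.50 and 3.06 FPKM and at 1.73 and 2.31 FPKM in siControl and siSNRNP40, log2 differences of 0.29 and 0.42. COL13A1, a transmembrane collagen and the highest of the collagens, had a log2 difference of -0.10. COL5A1, the highest fibrillar collagen, was at 14.0 FPKM in siControl and 13.4 in siSNRNP40.

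Collagen IV is the network collagen of basement membranes, and its chains COL4A1 and COL4A2 are read in opposite directions from one stretch of chromosome 13. COL4A2 was at 14.9 FPKM in siControl and 17.5 in siSNRNP40, and COL4A1 at 5.84 and 6.20. Their ratio, COL4A1 to COL4A2, was 0.391 in siControl and 0.354 in siSNRNP40, a smaller difference than those of the ratios to COL6A3 above. On the log2 scale this ratio differed by -0.14, near the -0.17 of COL6A1 to COL6A2. The 126 bases between the annotated starts, shown because both genes share them, held 1 GC box and 20 CpG dinucleotides at 80.2% G and C.

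COL4A1 and COL4A2, chr13:110307158-110307283, plus strand: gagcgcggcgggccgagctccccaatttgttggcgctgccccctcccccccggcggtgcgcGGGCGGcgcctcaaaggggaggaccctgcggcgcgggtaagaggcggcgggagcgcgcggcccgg

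Of the laminins, 3 of 7 chains were higher and 4 lower with siSNRNP40, beside 50.5% of all genes higher, with a median log2 difference of -0.17. LAMC1, the gamma 1 chain of most laminins, was at 60.2 FPKM in siControl and 71.8 in siSNRNP40, a log2 difference of 0.25. LAMB3, a beta chain of epithelial basement membranes, was the highest laminin at 73.9 and 81.0 FPKM, and LAMA3, an alpha chain that assembles with it, was at 5.17 and 4.21 FPKM. The ratio of LAMA3 to LAMB3 was 0.0699 in siControl and 0.0519 in siSNRNP40. The alpha chains were the lowest in both conditions, with LAMA5, the alpha 5 chain, at 1.73 and 1.34 FPKM. LAMB1 and LAMB2, which pair with gamma 1, were at 35.8 and 28.4 FPKM and at 24.5 and 21.8 FPKM, so that LAMB1 to LAMC1 was 0.596 in siControl and 0.395 in siSNRNP40.

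**Figure D3:**
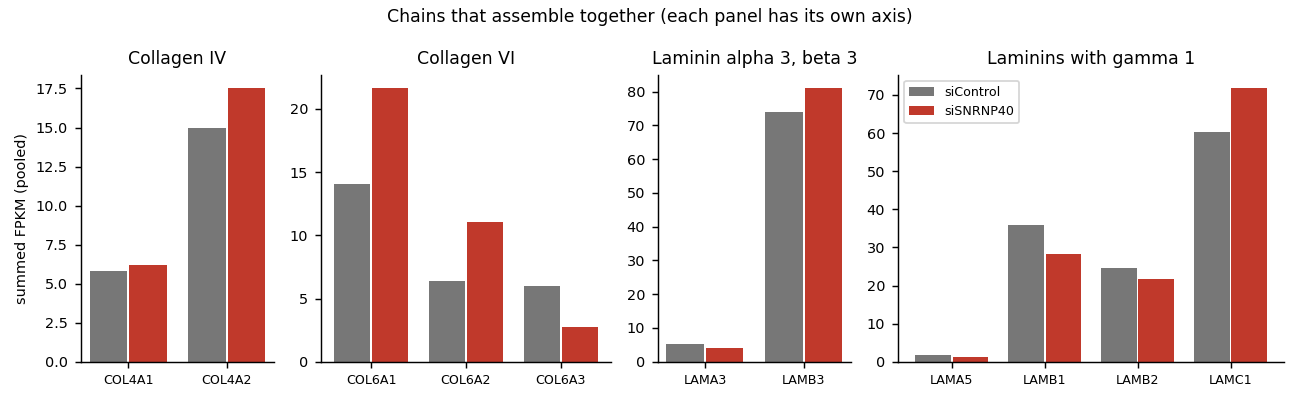
Summed FPKM of chains that assemble with at least 1 other chain of their panel, in siControl (grey bars) and siSNRNP40 (red bars). LAMB1 and LAMB2 are alternative beta chains. Each bar is 1 pooled value and starts from 0, and each panel has an axis of its own. In collagen VI, COL6A1 and COL6A2 were higher with siSNRNP40 and COL6A3 lower, while COL4A1 and COL4A2 kept nearly the same ratio.

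Of the integrins, 7 of 10 subunits were lower with siSNRNP40 and 3 higher, with a median log2 difference of -0.25. Of all genes, 50.5% were higher. The summed level of these subunits was 1322 FPKM in siControl and 1065 in siSNRNP40, and ITGB1 alone accounted for a difference of -175 of the -257 FPKM. Without ITGB1 the sums of the other 9 were 528 and 446 FPKM. Of the 10 subunits, all above the minimum, no lower one passed 0.5. The lower ones lay in a narrow range, from -0.37 for ITGB5 to -0.15 for ITGA2. Just below the minimum, ITGA10 had a log2 difference of -0.77 and ITGB2 of 1.27.

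Among the alpha subunits, ITGA3 and ITGA6, which bind laminin, had log2 differences of -0.34 and -0.19. ITGA2, the highest collagen-binding subunit, was at 20.5 FPKM in siControl and 18.4 in siSNRNP40, and ITGA1, another collagen-binding subunit, at 5.51 and 6.54. Of the integrins above the minimum, only ITGA5, the fibronectin receptor subunit, lay past 0.5. It was at 13.4 and 19.4 FPKM, a log2 difference of 0.53. It lies on the minus strand of chromosome 12 at 54789045 to 54813050 (GRCh37), and GPR84-AS1 is annotated on the other strand there.

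Among the beta subunits, ITGB5, which pairs with alpha V, had a log2 difference of -0.37 and ITGB1 of -0.36. ITGB4, the partner of alpha 6 in hemidesmosomes, was at 9.67 FPKM in siControl and 7.71 in siSNRNP40, and the ratio of ITGA6 to ITGB4 was 20.2 and 22.1. ITGB3 was at 1.09 and 1.23 FPKM, and ITGB8 at 1.2 and 0.979. The alpha V subunit, ITGAV, was not a member since its symbol carries a letter in place of a digit, and was at 65.0 FPKM in siControl and 53.2 in siSNRNP40, a log2 difference of -0.29. ITGB1 stood at 1.52 times the sum of 6 alpha subunits that pair with it (ITGA1, ITGA2, ITGA3, ITGA5, ITGA6 and ITGAV) in siControl and at 1.39 times in siSNRNP40.

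Fibronectin and its main receptor subunit differed in opposite directions. FN1, which codes for the glycoprotein that cells assemble into fibrils by way of integrin alpha 5 beta 1, was at 34.6 FPKM in siControl and 21.6 in siSNRNP40, a log2 difference of -0.68. The ratio of ITGA5 to FN1 was 0.388 in siControl and 0.898 in siSNRNP40. FN1 lies on the minus strand of chromosome 2 at 216225163 to 216300796 (GRCh37), and its annotated main transcript has 46 exons. The bases before the RefSeq starts of FN1 and ITGA5 (GRCh38.p14) are shown for this pair, with capitals as for collagen VI.

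FN1, chr2:215436069-215436318, minus strand: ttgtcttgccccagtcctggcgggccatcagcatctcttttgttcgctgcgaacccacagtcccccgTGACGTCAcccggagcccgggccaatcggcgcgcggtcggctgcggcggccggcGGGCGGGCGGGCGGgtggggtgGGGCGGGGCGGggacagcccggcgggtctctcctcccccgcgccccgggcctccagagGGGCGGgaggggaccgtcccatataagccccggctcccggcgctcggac
ITGA5, chr12:54419267-54419516, minus strand: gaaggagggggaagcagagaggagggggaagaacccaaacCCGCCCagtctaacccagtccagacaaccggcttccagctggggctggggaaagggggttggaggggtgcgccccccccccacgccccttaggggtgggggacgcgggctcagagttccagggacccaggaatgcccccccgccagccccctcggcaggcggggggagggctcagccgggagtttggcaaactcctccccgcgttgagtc

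The FN1 stretch held 1 CRE and 6 GC boxes, some of them overlapping, with 32 CpG dinucleotides. The ITGA5 stretch held 1 GC box and 12 CpG dinucleotides. Promoter sequence was matched for 33 of the 40 members and for 5 of the 7 past 0.5.

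The other glycoproteins were closer to 0. THBS1 had a log2 difference of -0.0083. TNC, the matrix glycoprotein tenascin C, was at 20.7 FPKM in siControl and 22 in siSNRNP40. FBN1, the microfibril protein fibrillin 1, was at 3.01 and 4.24 FPKM, a log2 difference of 0.49 and just short of 0.5. CD44 had a log2 difference of 0.29.

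Since SNRNP40 is a splicing factor, single transcripts were also described. The 40 members had 96 listed transcripts, with 22 members having 1 and 18 having more than 1, and the deposited table ties its transcript identifiers to no exons. The FPKM of transcripts that share exons are estimates that trade reads with each other, so the gene sum stands beside each. Of 66 member transcripts with a mean of at least 1 FPKM, 7 lay past an absolute log2 difference of 1, against 10.5% of all 16691 such transcripts, and 5 of these were lower and 2 higher.

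FN1 held 2 of them. Its leading transcript, TCONS_00024141, was at 19.7 FPKM in siControl and 12.5 in siSNRNP40 and made up 56.9% and 57.8% of the gene, so it differed as the gene did. TCONS_00024145 was at 3.85 and 1.61 FPKM, and TCONS_00024140 at 2.69 and 0.0074 FPKM. In the other direction, TCONS_00024144 was at 1.44 and 2.26 FPKM and TCONS_00024142 at 0.912 and 1.64 FPKM.

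In COL6A3 all 4 transcripts above 0 were lower with siSNRNP40. TCONS_00024274 was at 2.38 FPKM in siControl and 0.921 in siSNRNP40, and TCONS_00024271 at 2.38 and 1.2 FPKM. In COL6A2 the leading transcript, TCONS_00025720, was at 4.16 and 7.13 FPKM, and TCONS_00025722, at 1.61 and 3.26 FPKM, lay past 1. In COL6A3 and COL6A2 the transcripts thus differed in the direction of the gene sum.

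ITGB1 and COL13A1 also held transcripts past 1. TCONS_00005426 of ITGB1 was at 83.4 FPKM in siControl and 26.1 in siSNRNP40, and the leading transcript, TCONS_00005428, at 706 and 586 FPKM, made up 88.9% and 94.7% of the gene. TCONS_00005424 of ITGB1 went the other way, at 4.41 and 6.97 FPKM. In COL13A1, TCONS_00004703 was at 10.3 and 4.16 FPKM, while TCONS_00004698 was at 0.000797 and 3.92 FPKM, and the gene sum had a log2 difference of -0.10. The share of FPKM that moved between transcripts was 6.29% in ITGB1 and 18.2% in COL13A1. Both ITGA6 transcripts were lower, at 115 and 105 FPKM and at 80.4 and 65.7 FPKM. CD44, known for its variable exons, had 9 transcripts above 0, and the share of its leading transcript, TCONS_00006441, was 54.5% in siControl and 59.1% in siSNRNP40.

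**Figure D4:**
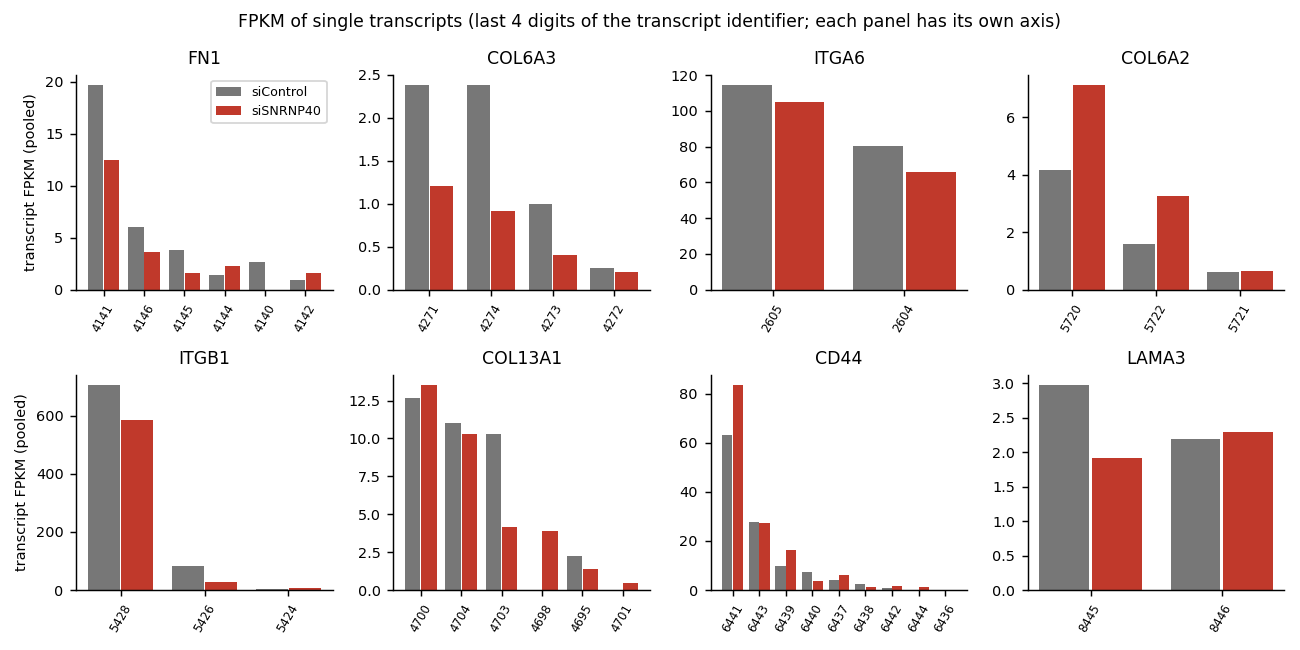
FPKM of each transcript with a value above 0 in 8 member genes, in siControl (grey bars) and siSNRNP40 (red bars), 1 pooled value each, ordered by mean, with an axis of its own in each panel. Within each of COL6A3, COL6A2 and ITGA6 all transcripts differ in the same direction, while those of FN1, COL13A1, CD44, ITGB1 and LAMA3 are mixed.

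COL6A3 and LAMA3 had another leading transcript in siSNRNP40 than in siControl. In COL6A3 the transcripts concerned, TCONS_00024274 and TCONS_00024271, were nearly tied in siControl, at 39.6% and 39.5% of the gene. COL6A3 and LAMA3 were 2 of the 18 members with more than 1 transcript above 0, against 15.9% of 4945 genes. The share of a gene's FPKM that moved between its transcripts had a median of 5.84% in these 18 and 8.48% in all 4945.

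Exon number was not part of the rule, and the members have more exons than most genes. By the annotation of GRCh37, the 37 chains, glycoproteins and CD44 had a median of 32 exons, against 9 for 11415 of the 12334 genes, and the collagens a median of 48, from 4 in COL8A1 to 119 in COL7A1. Their median length on the genome was 85.1 kb against 32.8 kb. Across these 37 genes the Spearman correlation of exon number with the log2 difference was 0.044, and across all 11415 genes it was -0.11. By family it was -0.068 over the 15 collagens, -0.90 over the 7 laminins and 0.37 over the 10 integrins. These correlations are across genes that share the same libraries, and they are given as descriptions. COL7A1, the anchoring-fibril collagen with 119 exons, was at 9.86 FPKM in siControl and 10.0 in siSNRNP40.

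The genes that process, bind and signal from these proteins were described from 4 lists, chosen by known role. Only listed genes with a mean of at least 1 FPKM were counted. Of 21 genes for collagen processing and cross-linking, 1 lay past 0.5. This was LOX, the lysyl oxidase that cross-links collagen, at 8.14 FPKM in siControl and 5.62 in siSNRNP40, a log2 difference of -0.54. The highest of the list, PPIB, a prolyl isomerase of the endoplasmic reticulum, was at 385 and 433 FPKM, and the list had a median of 0.10. Of 27 integrin adhesion proteins, 2 lay past 0.5 and the median was -0.026. FERMT2, the integrin activator kindlin 2, was at 43.5 and 30.6 FPKM, and ZYX, the focal adhesion protein zyxin, at 6.27 and 4.39. Their log2 differences were -0.506 and -0.515, only just past 0.5 in size. FLNA, an actin cross-linker and the highest of the list, was at 207 and 199 FPKM.

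Of 14 other matrix receptors, 1 lay past 0.5 and the median was -0.023. SDC4, the heparan sulfate proteoglycan syndecan 4 that joins integrins in binding fibronectin, was at 39.0 FPKM in siControl and 75.3 in siSNRNP40, a log2 difference of 0.95. Of 17 other matrix and matricellular proteins, 5 lay past 0.5, all of them lower with siSNRNP40, and the median was -0.15. SPP1, the integrin ligand osteopontin, was at 1.96 and 0.692 FPKM, a log2 difference of -1.51. TGFBI, an adhesion protein of the matrix and the highest of the list, was at 48.2 and 31.3 FPKM, and EFEMP1, a fibulin, at 25.8 and 16.9 FPKM. FBLN1, another fibulin, was at 2.34 and 1.65 FPKM, and HAS2, a hyaluronan synthase, at 4.48 and 3.16 FPKM. FBLN1 and HAS2 lay only just past 0.5 in size, with log2 differences of -0.505 and -0.503. Against 10.3% of all genes past 0.5 in either direction, these were 4.76%, 7.41%, 7.14% and 29.4% of the respective lists. The last list had a median level of 2.35 FPKM, and of all genes between 1 and 5 FPKM, 20.4% lay past 0.5.

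**Figure D5:**
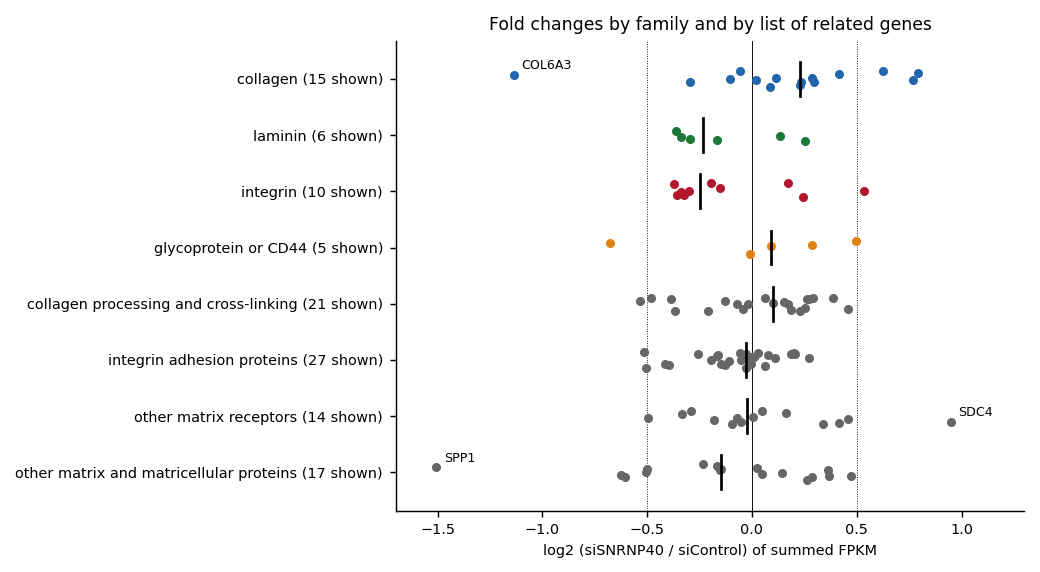
Log2 of siSNRNP40 over siControl for genes of the 4 member families (coloured points, 36 of 37) and of the 4 lists of related genes (grey points), with a black bar at the median of the points shown and dotted lines at 0.5 on either side of 0. Collagens lie mostly above 0 (median 0.23) and integrins mostly below it (median -0.25). The points are spread vertically only to keep them apart.

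In all, the members made up 0.408% of the summed FPKM in siControl and 0.367% in siSNRNP40, while the total over all genes was 516056 and 517152. Most of that difference came from ITGB1, since the other 39 members summed to 1310 FPKM in siControl and 1279 in siSNRNP40. Of the 40 members, 27 have an annotated gene on the other strand, and the sources used here do not say whether strand was used in counting, so reads of such partners may be included. FN1, COL6A1, COL6A2, COL6A3 and COL12A1 have none.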

How the data were processed

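RNA from LV-M100 cells was taken 48 h after transfection, depleted of ribosomal RNA, made into ScriptSeq libraries and sequenced, with 2 libraries per condition. The authors trimmed reads (cutadapt 1.2.1), mapped them to hg19 (TopHat 2.0.8), assembled transcripts with Cufflinks and deposited the Cuffdiff 2.0.2 table of 44578 transcripts, with 1 FPKM value per condition pooled over its libraries. Counts are not given, so depth is unknown and no interval could be set. Columns of the authors' own comparison (fold change, test statistic, p and q) were not used.

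FPKM were summed per gene symbol and compared as log2 of siSNRNP40 over siControl with no pseudocount, for genes with a mean of at least 1 FPKM, using Python 3.11.15 with pandas 2.3.3. The steps were tested on simulated data with 200 changed genes. Coordinates and exons come from GENCODE 44 lifted to GRCh37, whose coordinates are those of hg19, and promoters from RefSeq on GRCh38.p14, with no conversion between builds. Promoters were matched for 33 of 40 members.

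Members, lists and thresholds were chosen with earlier results of these data known. Named were the 10 highest members, all past 0.5, the highest of each class, the 3 on either side of the minimum, transcripts past 1, and, of the related lists, those past 0.5 and the highest; partner chains, neighbours, FBN1, ITGB4, COL9A2, COL16A1, COL7A1, COL8A1, COL1A1, COL1A2, COL3A1, SPARC, NID1 and the other transcripts of the genes so named were added after their values were seen. Of the members, 1 is counted but not reported here. Alternatives were another minimum, none, a pseudocount of 1, 2 other scalings, the most expressed transcript, and leaving out symbols that are not chains.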

Additional observations from a re-analysis of the deposited data

How the results depend on the processing

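No paired analysis was possible because each condition was deposited as 1 pooled value, and for the same reason no library could be left out. The count of members past an absolute log2 difference of 1 was 1 (COL6A3). It was 0 with a minimum of 5 FPKM, which removes COL6A3, 0 with a pseudocount of 1, where COL6A3 had -0.91, and 0 with the most expressed transcript of each gene, where COL6A3 had -0.98. With no minimum it was 11 of 74, beside 10.8% of all genes. Past 0.5 lay 7 members, and 26 of 74 with no minimum, beside 24.1% of all genes. Under the other planned settings that count was from 6 to 8. The 7 transcripts past 1 of 66 became 2 of 40 with a minimum of 5 FPKM, 31 of 117 with none and 4 of 66 with a pseudocount of 1, beside 3.46%, 24.2% and 7.21% of all transcripts. The median of 0.060 ranged from 0.0062 to 0.091 over the planned settings. A split by the number of listed transcripts, chosen after seeing the data, gave 0 past 1, 2 of 22 past 0.5 and a median of 0.13 for members with 1 transcript, beside 1.83% and 11.1% of all such genes past 1 and 0.5. For those with more it gave 1 past 1, 5 of 18 past 0.5 and a median of -0.12, beside 0.984% and 9.24%. The cause of that difference was not tested. For the 7 members past 0.5, 46 of 48 values under the planned settings were within 0.1 of the reported one, the exceptions being those of COL6A3 above, and none changed direction. Centring moved the median of all genes by 0.0034 and upper-quartile scaling shifted every gene by 0.029 on the log2 scale.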
